A study of Homo sapiens with 2 samples.

Results

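Hashtag pairs 1+5 and 2+5 are 2 of the 18 antibody-tag combinations carried by OVCAR5 ovarian carcinoma cells in 1 pool, and each was set against a pair with a similar interferon state. Pair 1+5 was compared with pair 5+7, and pair 2+5 with pair 7+8, to see which genes shifted the same way in both. Pair 1+5 held 243 cells and pair 2+5 held 166, together 409 of 6114 cells with a readable pair and of 7201 cells past the cell filter. Pairs 5+7 and 7+8 held 334 and 356 cells. Cells were kept if they held 500 genes or more and if mitochondrial genes gave no more than 20% of their UMIs (unique molecular identifiers, one per captured RNA molecule). The pair of a cell was the 2 most abundant of 8 hashtags, where the second held at least 5 times the third plus 1 UMI.

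The cells carried a reporter for sensing interferon-gamma (CFP-positive, per the labels), and were profiled by droplet single-cell 3' RNA sequencing with cell hashing. By the labels the pool mixed 18 conditions, made of unstimulated cells and of 1, 10 and 100 ng/ml of interferon-gamma over 2, 6, 12 and 24 h, with frozen versions of the 24 h cells, both unstimulated and at 100 ng/ml. The sources used here do not say which hashtags mark which condition, so the pairs are named by their hashtags alone, and no dose, time or freezing is assigned to any of them. There was 1 pooled sample of 1 line with no replicate, so no difference below was tested, and every interval is a 95% interval that covers counting error only.

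Interferon-gamma signals through its receptor and the kinases JAK1 and JAK2. The transcription factor IRF1 is induced early, and IRF1 with CIITA then drives genes of antigen presentation, among them CD74, the chaperone of MHC class II molecules. Levels of IRF1 and CD74 are therefore used as a coarse guide to how far a cell has gone along this response, and the pairs compared here were chosen by them.

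IRF1 stood at 53.6 CPM (counts per 1000000 gene UMIs of a pair) in pair 1+5, against 70.8 CPM in pair 5+7. CD74 stood at 1039 CPM in pair 2+5, against 1278 CPM in pair 7+8. IRF1 was at 43.7 to 60.4 CPM in the other IRF1-low pairs (1+2, 2+4 and 3+5), and the next pair above the low ones, 5+8, had 808 CPM. CD74 was at 1183 and 1245 CPM in the other CD74-high pairs (5+8 and 6+8), and the next pair below, 5+6, had 660 CPM. Because these values chose the pairs, they are a description and not a result. In pair 2+5 IRF1 was at 894 CPM, against 1044 CPM in pair 7+8, and in pair 1+5 CD74 was at 16.9 CPM, against 19.5 CPM in pair 5+7. The matching was thus approximate in level, with both genes lower in 1+5 and in 2+5 than in the pair set against each. Pair 5+7 had the highest IRF1 of the IRF1-low pairs, and pair 7+8 the highest CD74 of all pairs.

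The epithelial identity given by the labels was read from its markers. The keratins KRT8 and KRT18, filament proteins of simple epithelia, stood at 855 and 1879 CPM in pair 1+5 and at 998 and 1853 CPM in pair 2+5, and EPCAM was at 64.2 and 49.1 CPM. PAX8 and MUC16, markers of ovarian carcinoma, were near 0, with PAX8 at 4.10 and 2.78 CPM and MUC16 at 2 and 0 UMIs in the pairs 1+5 and 2+5. VIM, an intermediate filament of mesenchymal cells, was high at 2875 and 3093 CPM. Other mesenchymal genes were low: a list of 10 without VIM summed to 62.1 CPM in pair 1+5 and 61.0 CPM in pair 2+5. Of these 10 genes 2 passed the level filter. Of 7 T cell markers 5 were at 0 UMIs in all 4 pairs, including CD3D and TRAC, while IL7R had 33.0 CPM in pair 1+5 and 42.1 CPM in pair 2+5. Of 7 myeloid markers only CD68, a lysosomal protein, passed the level filter, at 28.9 and 37.6 CPM. The summed T cell list, nearly all of it IL7R, was at 33.7 CPM in pair 1+5, against 27.2 CPM in pair 5+7, and at 42.7 CPM in pair 2+5, against 32.0 CPM in pair 7+8, within the 27.2 to 98.8 CPM of the 16 other pairs. Of 8 endothelial and fibroblast markers 5 were at 0 UMIs in the 4 pairs, and the list summed to 0.742 to 1.18 CPM in them.

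The sharpest difference of pairs 1+5 and 2+5 from the others lay in barcodes that failed the cell filter. Of barcodes with a readable pair before filtering, 69 of 312 (22.1%, exact binomial interval 17.6 to 27.1%) were removed from pair 1+5 and 70 of 236 (29.7%, 23.9 to 35.9%) from pair 2+5. In pair 5+7, 20 of 354 (5.65%, 3.48 to 8.59%) were removed, and in pair 7+8, 33 of 389 (8.48%, 5.91 to 11.7%). Over the 16 pairs other than 1+5 and 2+5 the share ran from 2.94 to 8.90%, with a median of 5.38%. Both intervals thus lay above every other pair's share.

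The removed barcodes were mostly over the mitochondrial limit, 69 of 69 in pair 1+5 and 69 of 70 in pair 2+5. Their median mitochondrial share was 87.0% in pair 1+5 and 79.7% in pair 2+5, and it was 83.8% in pair 5+7 and 81.0% in pair 7+8. A high share of mitochondrial UMIs is widely used as a sign of damaged cells. The removed barcodes held few UMIs, with medians of 4737 in pair 1+5, 5010.5 in pair 2+5, 6410 in pair 5+7 and 5235 in pair 7+8. The removed barcodes of pairs 1+5 and 2+5 were thus more frequent, and close in both measures to those of pairs 5+7 and 7+8. Outside mitochondrial genes they held 59067 UMIs in pair 1+5 and 113824 in pair 2+5, few beside those of the kept cells. With no cell filter and with mitochondrial genes left out of the totals, 7 genes were past 1.5-fold the same way in both comparisons, among them 5 of the 6 shared with the filter, without GBP7. Sharing a hashtag did not go with a high share: pairs 3+5, 5+6 and 5+8, which carry hashtag 5, lost 4.64, 7.45 and 7.93%, and pair 1+2 lost 4.49%.

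The kept cells of pairs 1+5 and 2+5 did not stand apart in the same measures. The median mitochondrial share was 11.1% in pair 1+5, against 11.8% in pair 5+7, and 11.8% in pair 2+5, against 12.4% in pair 7+8. The other 16 pairs ran from 10.5 to 12.4%. Median depth was 31787 UMIs and 5631 genes in pair 1+5, against 29736.5 UMIs and 5534 genes in pair 5+7. It was 30453.5 UMIs and 5562 genes in pair 2+5, against 29359.5 UMIs and 5412 genes in pair 7+8. Pairs 1+5 and 2+5 had the 2 smallest cell numbers of the 18, the other 16 holding 304 to 493 cells. Hashtag staining differed between them: the median was 970 hashtag UMIs in pair 1+5, the lowest of 18, and 1606.5 in pair 2+5.

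**Figure D1:**
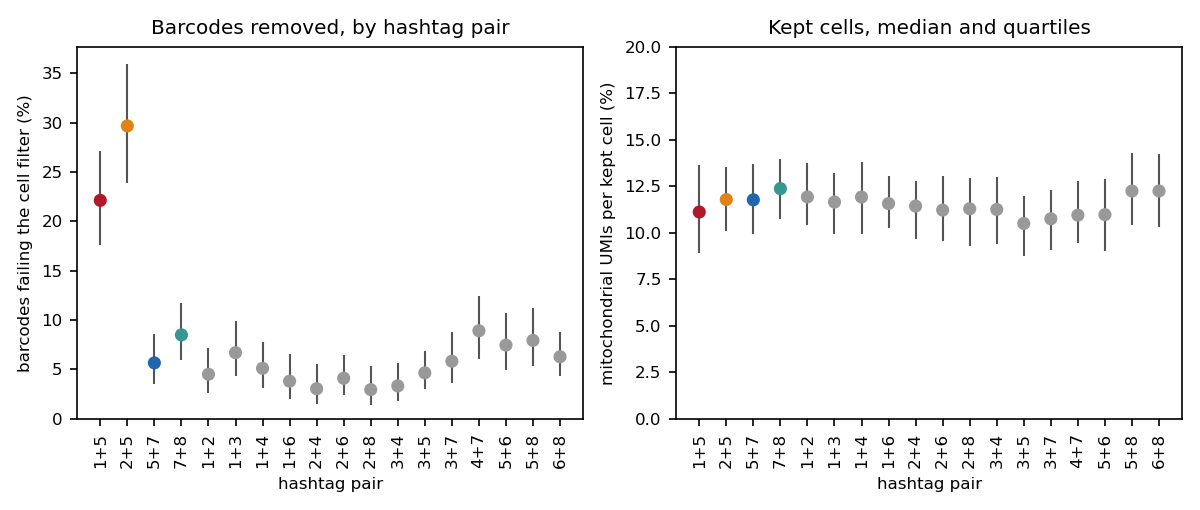
Left, percent of barcodes with a readable hashtag pair that failed the cell filter, by pair (points, bars are exact 95% binomial intervals). Right, mitochondrial UMIs per kept cell in percent (points are medians, bars run from the lower to the upper quartile). Pairs 1+5 (22.1%) and 2+5 (29.7%) lie above all other pairs on the left, where the highest other value is 8.90%, and within the range of the others on the right.

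Summed UMIs were 7813736 in pair 1+5, 10166666 in pair 5+7, 5392185 in pair 2+5 and 10804391 in pair 7+8. Genes with at least 400 UMIs over these 4 pairs were measured, 7325 in all. Past 1.5-fold, 64 genes (0.874%) differed between 1+5 and 5+7, 29 higher and 35 lower (0.396 and 0.478%). Between 2+5 and 7+8, 95 genes (1.3%) did so, 35 higher and 60 lower (0.478 and 0.819%). Only 6 genes (0.0819%) were past 1.5-fold the same way in both, 1 higher (0.0137%) and 5 lower (0.0683%), and 2 (0.0273%) in opposite ways. LCN2 was the gene that was higher, and DHRS3, RSAD2, CXCL9 and GBP7 were among those that were lower. CXCL9 and GBP7 entered this count through the CD74-high pairs alone. They had too few UMIs in pairs 1+5 and 5+7 to measure a difference there, as given below. CXCL10, 1 of the 2 in opposite ways, also had too few UMIs there to show a difference.

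Most genes moved little in either comparison. A looser limit, past which a gene was at least 25% higher or 20% lower, was not reached by 92.6% of genes in 1+5 against 5+7 and by 89.7% in 2+5 against 7+8. The 2 comparisons share no cells and no pair. Their log2 ratios nevertheless went together across genes, with Pearson's r of 0.370 and Spearman's rho of 0.371 over 7325 genes, and 0.551 and 0.545 over the 2546 genes with at least 2000 UMIs. These genes come from the same libraries and are not independent replicates. The sign was the same for 64.0% of the 7325 genes and for 69.9% of the 2546. Of the 7325, 25.4% had ratios below 1 in both comparisons and 38.6% above 1 in both, and counts of list members below are to be read against these shares.

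Past the looser limit were 543 genes (7.41%) in 1+5 against 5+7 and 753 (10.3%) in 2+5 against 7+8. The shared set held 152 genes (2.08%), 80 higher (1.09%) and 72 lower (0.983%), against 23 (0.314%) in opposite ways. The 80 were 25.8% of the 310 genes higher in 1+5 (4.23% of all) and 19.5% of the 411 higher in 2+5 (5.61%). The 72 were 30.9% of the 233 genes lower in 1+5 (3.18%) and 21.1% of the 342 lower in 2+5 (4.67%). The exact interval of the ratio excluded 1 in both comparisons for 65 of the 80 and for 54 of the 72. In 20 of the 80 both pairs lay above all 16 other pairs, and in 11 of the 72 both lay below them. At any size of difference, both lay above all 16 in 215 genes (2.94%) and below them in 91 (1.24%). Set only against the pairs of like state (1+2, 2+4, 3+5 and 5+7 for 1+5, and 5+8, 6+8 and 7+8 for 2+5), both lay above in 805 genes (11%) and below in 524 (7.15%).

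**Figure D2:**
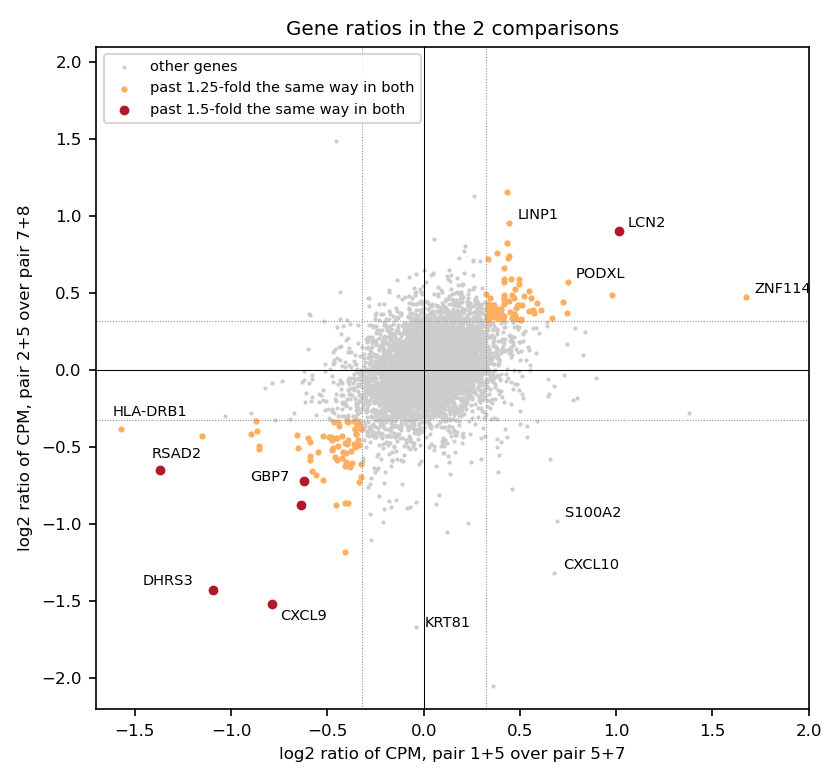
Log2 ratio of CPM for each of 7325 genes, pair 1+5 over pair 5+7 (x) and pair 2+5 over pair 7+8 (y). Dotted lines mark 25% higher and 20% lower, orange points are the genes past it the same way in both, and red points are the 6 past 1.5-fold. The cloud tilts upward to the right, LCN2 stands alone at the upper right among the red points, and S100A2 and CXCL10 lie at the lower right.

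LCN2 (ENSG00000148346, chromosome 9, 128149071 to 128153455 on GRCh38) encodes lipocalin 2, a secreted protein that binds iron-carrying siderophores and is produced by epithelial cells in inflammation. It was at 104 CPM in pair 1+5, against 51.3 CPM in pair 5+7, a ratio of 2.02 (interval 1.81 to 2.26). It was at 96.4 CPM in pair 2+5, against 51.5 CPM in pair 7+8, a ratio of 1.87 (1.66 to 2.12). Over the 16 other pairs it ran from 37.0 to 72.9 CPM with a median of 51.4, so both pairs stood above all of them. With each cell thinned to 10000 UMIs, 44.5% of cells in pair 1+5 had at least 1 LCN2 UMI (38.1 to 51.1%), against 32.5% (27.5 to 37.9%) in pair 5+7. In pair 2+5 the share was 42.3% (34.4 to 50.5%), against 29.9% (25.1 to 35.0%) in pair 7+8. No cell type without LCN2 was at hand in the pool to show how much free RNA adds to such shares. Without thinning the shares were 65.8% in pair 1+5, 53.3% in pair 5+7, 65.1% in pair 2+5 and 52.2% in pair 7+8. The UMIs were uneven between cells, the top 10% of cells holding 45.4% of them in pair 1+5 and 46.5% in pair 2+5, close to 47.9% in pair 5+7 and 50.9% in pair 7+8.

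IGFBP6 (ENSG00000167779, chromosome 12, 53097436 to 53102345) had the most UMIs of the 11 genes that were lower past the looser limit and below all 16 other pairs in both. It encodes a secreted binding protein with preference for insulin-like growth factor 2. It was at 108 CPM in pair 1+5, against 161 CPM in pair 5+7, a ratio of 0.670 (0.616 to 0.728). It was at 129 CPM in pair 2+5, against 204 CPM in pair 7+8, a ratio of 0.636 (0.583 to 0.693). The 16 other pairs ran from 144 to 212 CPM with a median of 162. It lay just short of 1.5-fold in the first comparison, while GBP7 with ratios of 0.651 and 0.609 lay just past it.

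The promoters of LCN2 and IGFBP6 are given because these genes stood outside the range of the 16 other pairs on opposite sides. The windows are from RefSeq on GRCh38.p14 and run from 250 bases before to 50 bases after the annotated start, on the plus strand, LCN2 at chr9:128149203-128149502 and IGFBP6 at chr12:53097417-53097716. Both strands were searched for a loose form of the AP-1 site, with the letters TGANTCA, where N is any base. The GC box was searched with the letters GGGCGG. The strands were also searched for the half-site of retinoid receptors, with the letters AGGTCA, and for the TATA box, with the letters TATAAA. Capitals mark the only match found in each window, the loose AP-1 letters in LCN2 and the GC box in IGFBP6.
LCN2: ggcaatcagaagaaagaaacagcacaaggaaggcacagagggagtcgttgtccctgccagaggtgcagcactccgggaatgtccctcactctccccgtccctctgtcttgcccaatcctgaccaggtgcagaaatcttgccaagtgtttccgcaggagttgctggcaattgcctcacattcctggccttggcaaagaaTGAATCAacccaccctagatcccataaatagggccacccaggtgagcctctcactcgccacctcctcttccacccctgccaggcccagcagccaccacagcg
IGFBP6: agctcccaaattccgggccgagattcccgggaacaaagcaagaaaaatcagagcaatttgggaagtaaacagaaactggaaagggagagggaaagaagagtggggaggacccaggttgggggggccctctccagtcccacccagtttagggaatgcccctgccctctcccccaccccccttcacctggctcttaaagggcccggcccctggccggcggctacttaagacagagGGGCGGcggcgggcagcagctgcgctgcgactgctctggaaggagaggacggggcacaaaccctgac
LCN2 held 1 match to the loose AP-1 letters and IGFBP6 held 1 GC box. The LCN2 match, TGAATCA, has A in the middle, where the AP-1 consensus has C or G, so it is not a consensus AP-1 site. Of 35116 RefSeq promoter windows of this length, 7.71% hold the loose AP-1 letters, 45% the GC box, 13.8% the half-site and 11.5% the TATA box. A match describes letters in a window and no binding was measured.

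Other genes above all 16 pairs in both comparisons were named past the looser limit after their values had been seen. PODXL, a sialomucin of the apical cell surface, was at 59.6 CPM in pair 1+5, against 35.5 CPM in pair 5+7, a ratio of 1.68 (1.46 to 1.93). It was at 62.5 CPM in pair 2+5, against 42.0 CPM in pair 7+8, a ratio of 1.49 (1.29 to 1.72). The highest of the other pairs had 56.9 CPM, little below pair 1+5.

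AXL, a receptor tyrosine kinase for the ligand GAS6, was at 157 CPM in pair 1+5, against 113 CPM in pair 5+7, a ratio of 1.39 (1.28 to 1.504). It was at 148 CPM in pair 2+5, against 103 CPM in pair 7+8, a ratio of 1.44 (1.31 to 1.58). The other pairs ran from 91.1 to 133 CPM. AXL was spread over most cells: after thinning, 75.6% of cells in pair 1+5 had a UMI, against 67.8% in pair 5+7, and 70.5% in pair 2+5, against 56.2% in pair 7+8.

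EPAS1 encodes HIF-2alpha, an oxygen-regulated transcription factor. Its level was 46.1 CPM in pair 1+5, against 33.2 CPM in pair 5+7, a ratio of 1.39 (1.19 to 1.61), and 43.2 CPM in pair 2+5, against 31.2 CPM in pair 7+8, also a ratio of 1.39 (1.17 to 1.64). The other pairs ran from 29.1 to 39.2 CPM. HILPDA, a lipid droplet protein induced by hypoxia, was at 17.3 CPM in pair 1+5, against 12.3 CPM in pair 5+7, and at 14.7 CPM in pair 2+5, against 10.9 CPM in pair 7+8, on 79 to 135 UMIs. PLOD1, a collagen lysyl hydroxylase, had ratios of 1.34 (1.16 to 1.54) and 1.37 (1.19 to 1.59). The long noncoding RNA UCA1 had ratios of 1.38 (1.30 to 1.47) and 1.27 (1.19 to 1.35), and the neuropeptide gene GAL 1.254 (1.13 to 1.39) and 1.41 (1.252 to 1.58).

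A further group was higher past the looser limit in both without standing above all other pairs. TFRC, the transferrin receptor, had ratios of 1.40 (1.28 to 1.53) and 1.26 (1.15 to 1.39), and SLC7A11, the cystine transporter subunit, 1.28 (1.16 to 1.41) and 1.27 (1.10 to 1.47). F3, the coagulation initiator tissue factor, had 1.35 (1.10 to 1.67) and 2.23 (1.87 to 2.67), yet its levels of 23.9 CPM in pair 1+5 and 49.1 CPM in pair 2+5 lay inside the range of the other pairs, 17.7 to 124 CPM. ZNF114, a zinc finger gene, had the largest ratio of the set, 3.20 (2.33 to 4.43), at 17.9 CPM in pair 1+5, against 5.61 CPM in pair 5+7. In pair 2+5 it was at 26.1 CPM, against 18.8 CPM in pair 7+8, a ratio of 1.39 (1.11 to 1.73). LINP1, a long noncoding RNA that acts in DNA end joining, had 1.36 (1.23 to 1.51) and 1.94 (1.70 to 2.21). These genes were thus higher than in the matched pair, and only some were higher than elsewhere in the pool.

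Among the genes lower in both, DHRS3 acts in retinoid metabolism, where it reduces retinal to retinol. DHRS3 (chromosome 1, 12567910 to 12617731, minus strand) was at 54.9 CPM in pair 1+5, against 117 CPM in pair 5+7, a ratio of 0.468 (0.418 to 0.523). It was at 23.7 CPM in pair 2+5, against 63.7 CPM in pair 7+8, a ratio of 0.373 (0.306 to 0.451). It varied widely over the pool, from 17.4 to 125 CPM with a median of 45.5, and pairs 1+5 and 2+5 lay inside that range. Against other IRF1-low pairs the direction in 1+5 was not stable: the ratio was 0.440 against pair 1+2, 2.04 against pair 2+4 and 1.54 against pair 3+5.

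A list of 29 retinoid-related genes, drawn up after the values of DHRS3 had been seen, had 14 measured members. Of these 7 were below 1 in both comparisons (25.4% of all genes) and 2 above 1 in both (38.6%), and 4 were lower past the looser limit in both (0.983%), namely DHRS3, PLAAT4, HOTAIRM1 and ELF3. The list's median ratio was 0.915 in 1+5 and 0.903 in 2+5, beside 1.02 for all genes in each comparison. DHRS3, which prompted the list, is included in these counts and medians. They therefore only describe the list and cannot show that retinoid-related genes differ from all genes. PLAAT4, a phospholipid acyltransferase induced by retinoids and by interferon, was at 90.5 CPM in pair 1+5, against 130.0 CPM in pair 5+7, and at 673 CPM in pair 2+5, against 1103 CPM in pair 7+8. Its ratios were 0.696 (0.634 to 0.763) and 0.610 (0.587 to 0.633). TGM2, a transglutaminase also induced by retinoids, differed less, with ratios of 1.04 (0.983 to 1.11) and 0.923 (0.888 to 0.960). Against pairs 2+4 and 3+5 the list's median in 1+5 was 1.13 and 1.20, and against pair 1+2 it was 0.814.

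SNCG, gamma-synuclein, was also lower in both. It was at 135 CPM in pair 1+5, against 200 CPM in pair 5+7, a ratio of 0.678 (0.629 to 0.731). It was at 78.8 CPM in pair 2+5, against 126 CPM in pair 7+8, a ratio of 0.624 (0.559 to 0.697). In pair 2+5 it was the lowest of 18 pairs, and in pair 1+5 it was below the other IRF1-low pairs (156 to 266 CPM). SELENOM, a selenoprotein of the endoplasmic reticulum, was below all 16 others in both pairs with ratios of 0.752 (0.641 to 0.882) and 0.650 (0.556 to 0.758), as were the claudin CLDN11, with 0.799 (0.661 to 0.964) and 0.657 (0.520 to 0.825), and IFI27L2, with 0.731 (0.660 to 0.808) and 0.736 (0.655 to 0.827).

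**Figure D3:**
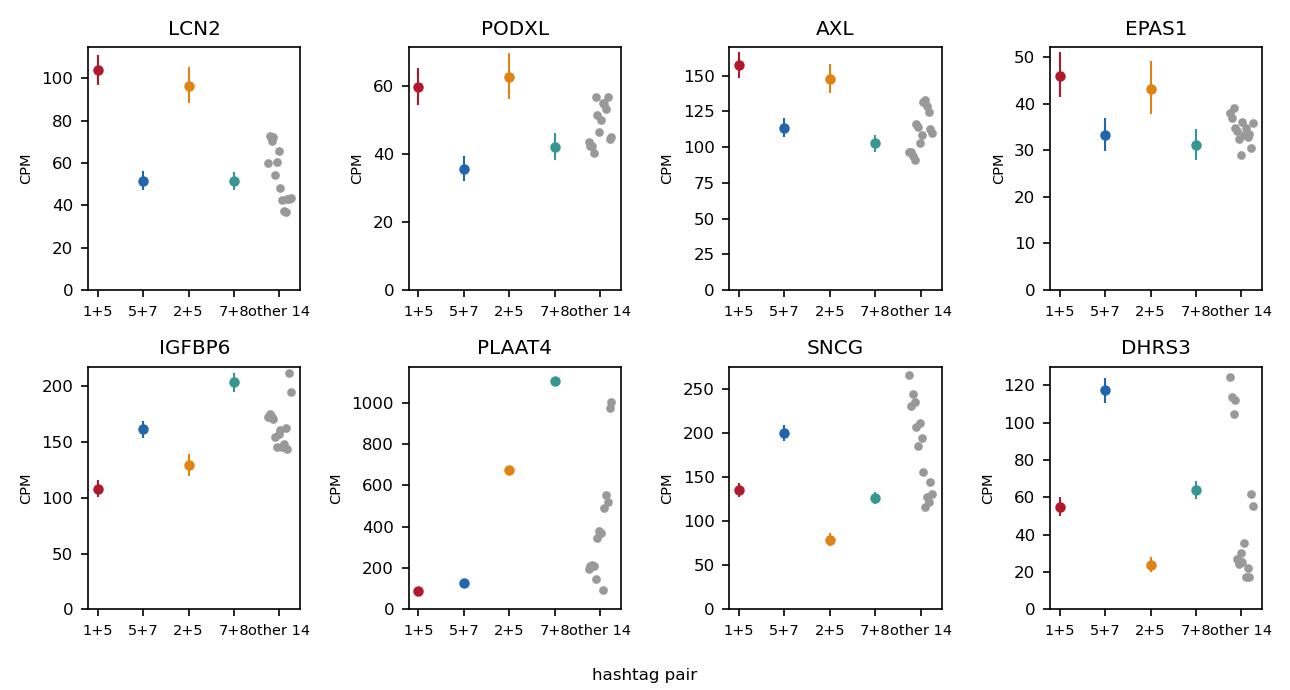
Level in CPM of 8 genes in pairs 1+5, 5+7, 2+5 and 7+8 (coloured points, bars are exact 95% Poisson intervals) and in the 14 remaining pairs (grey points, no bars). In the top panels pairs 1+5 and 2+5 lie above all other pairs. In the bottom panels both lie below the pair set against them, and below all others only for IGFBP6 in both.

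Of the genes lower past 1.5-fold in both, RSAD2, CXCL9 and GBP7 are interferon-induced. RSAD2 (viperin, an antiviral enzyme) was at 5.25 CPM in pair 1+5, against 13.6 CPM in pair 5+7, a ratio of 0.387 (0.266 to 0.551), on 41 and 138 UMIs. It was at 15.9 CPM in pair 2+5, against 24.99 CPM in pair 7+8, a ratio of 0.638 (0.495 to 0.816). These UMIs came from few cells: the top 10% of cells held 100% of them in pairs 1+5 and 5+7 and 79.1% in pair 2+5, against 83.0% in pair 7+8. RSAD2 is 1 of the genes used further on to find antiviral-high cells, and without those cells 4 and 6 of its UMIs were left in pairs 1+5 and 5+7.

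CXCL9, a ligand of the T cell receptor CXCR3, was at 23.9 CPM in pair 2+5, against 68.4 CPM in pair 7+8, a ratio of 0.350 (0.288 to 0.422). In pairs 1+5 and 5+7 it had 4 and 9 UMIs, and its ratio of 0.578 has an interval from 0.130 to 2.07. GBP7, a guanylate-binding protein, was at 22.8 CPM in pair 2+5, against 37.5 CPM in pair 7+8, a ratio of 0.609 (0.493 to 0.746), and had 2 and 4 UMIs in pairs 1+5 and 5+7. For both genes only the second comparison has the depth to show a difference, since they entered the measured set through the CD74-high pairs alone. CXCL9 was at 19.5 to 68.4 CPM over the CD74-high pairs 5+8, 6+8 and 7+8, so pair 2+5 lay inside their range, and against pair 5+8 its ratio was 1.23.

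Antiviral genes mostly lay below the matched pairs. Of 34 measured, 24 had ratios below 1 in both comparisons (25.4% of all genes) and 0 above 1 in both (38.6%). The median ratio was 0.902 in 1+5 and 0.824 in 2+5. Past the looser limit, 10 were lower (3.18% of all genes) and 2 higher (4.23%) in 1+5, and 13 lower (4.67%) and 0 higher (5.61%) in 2+5. In both comparisons 4 were lower (0.983%), RSAD2, MX1, IFITM1 and DDX58. MX1, a GTPase that restricts viruses, was at 18.9 CPM in pair 1+5, against 23.7 CPM in pair 5+7, a ratio of 0.799 (0.647 to 0.985), and at 174 CPM in pair 2+5, against 226 CPM in pair 7+8, a ratio of 0.770 (0.714 to 0.831). The list's median moved with the pair chosen for the comparison: it was 0.690, 0.982 and 1.03 for 1+5 against pairs 1+2, 2+4 and 3+5, and 0.953 and 0.868 for 2+5 against pairs 5+8 and 6+8. Pair 5+7 had the highest IRF1 of the IRF1-low pairs, and pair 7+8 the highest CD74 of all pairs. Their choice bears on all genes that move with IRF1 or CD74, so the antiviral counts are a description.

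MHC class I presentation genes were also mostly below the matched pairs. Of 19 measured members 16 were below 1 in both comparisons (25.4% of all genes), with median ratios of 0.937 and 0.873. Past the looser limit the same way in both were 0 members (2.08% of all genes). The choice of pairs 5+7 and 7+8 bears on these counts as well, so they are a description. For 1+5 the median was 0.786, 0.872 and 0.950 against pairs 1+2, 2+4 and 3+5. For 2+5 it was 0.962 and 0.920 against pairs 5+8 and 6+8, nearer to 1 than against 7+8. PSMB9, a subunit of the immunoproteasome, was at 48.9 CPM in pair 1+5, against 90.9 CPM in pair 5+7, a ratio of 0.538 (0.476 to 0.607), and at 985 CPM in pair 2+5, against 1195 CPM in pair 7+8, a ratio of 0.824 (0.798 to 0.851). PSMB9 in pair 1+5 was the lowest of 18 pairs. The 3 members above 1 in both (38.6% of all genes) were the peptide transporter TAP2 and the general chaperones CALR and CANX, with CALR at ratios of 1.20 (1.16 to 1.248) and 1.11 (1.07 to 1.16).

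MHC class II genes were near their floor in both IRF1-low pairs, so that only 2+5 against 7+8 measures them well. CD74, which chose these pairs, was left out of the counts. Pair 7+8 had the highest CD74 of the 18 pairs, so this choice bears on all genes that move with CD74, and the counts are a description. With CD74 kept, the list's median in 2+5 was 0.813 against pair 7+8, 0.941 against 5+8 and 0.835 against 6+8. In 2+5 against 7+8, 10 of the 10 other measured members were below 1 (44.5% of all genes), with a median ratio of 0.810, and in 1+5 against 5+7, 5 of 10 were (42.3%), with a median of 1.03. HLA-DRA was at 213 CPM in pair 2+5, against 254 CPM in pair 7+8, a ratio of 0.840 (0.784 to 0.901), and HLA-DRB1 at 111 CPM, against 145 CPM, a ratio of 0.768 (0.698 to 0.845). HLA-DRB1 had 8 UMIs in pair 1+5 and 31 in pair 5+7, and reads of HLA genes can be shared between alleles and paralogs. IDO1, which degrades tryptophan, was at 3292 CPM in pair 2+5, against 4298 CPM in pair 7+8, a ratio of 0.766 (0.753 to 0.779). Of 5 measured guanylate-binding proteins of the list, GBP2 and GBP4 were below 1 in both (25.4% of all genes), with ratios of 0.776 and 0.735 in 1+5 and 0.815 for each in 2+5. That list had medians of 0.776 and 0.815. All genes of the list summed to 349 and 530 UMIs in pairs 1+5 and 5+7, against 8227 and 18777 in pairs 2+5 and 7+8. Its ratios in 1+5 thus rest on few UMIs. Without IRF1, the list of interferon transcription factors had medians of 0.957 and 0.920 over 12 genes. With IRF1 kept, its direction changed with the matched pair. The median for 1+5 was 0.866, 1.21 and 1.03 against pairs 1+2, 2+4 and 3+5. For 2+5 it was 1.06 and 0.919 against pairs 5+8 and 6+8. Not every interferon list lay lower in both: 5 negative regulators had medians of 0.870 and 1.03. Checkpoint and tryptophan genes had medians below 1 in both, at 0.993 and 0.950 over 8 members. Of these 8, 5 were below 1 in both (25.4% of all genes) and 3 above 1 in both (38.6%).

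Keratins and other epithelial genes were also below the matched pairs. Of 10 measured members 8 were below 1 in both comparisons (25.4% of all genes) and 0 above 1 in both (38.6%), with median ratios of 0.851 and 0.832. KRT18 was at 1879 CPM in pair 1+5, against 2244 CPM in pair 5+7, a ratio of 0.837 (0.820 to 0.855), and at 1853 CPM in pair 2+5, against 2138 CPM in pair 7+8, a ratio of 0.867 (0.846 to 0.887). Both values lay below the 16 other pairs, which ran from 2083 to 3287 CPM. ELF3, an epithelial transcription factor, was the member past the looser limit in both, with ratios of 0.729 (0.632 to 0.839) and 0.545 (0.433 to 0.680), although 5+7 had the highest level of the pool at 54.1 CPM. The median of the list in 1+5 was 0.761, 0.766 and 1.01 against pairs 1+2, 2+4 and 3+5. In 2+5 it was 0.901 and 0.825 against pairs 5+8 and 6+8.

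Among the lists with medians above that of all genes in both comparisons were cholesterol synthesis, amino acid response, and hypoxia and glycolysis. Cholesterol genes had medians of 1.17 and 1.11 over 13 members, with 8 above 1 in both (38.6% of all genes). INSIG1, a feedback sensor of sterols, was past the looser limit in both at 1.68 (1.33 to 2.12) and 1.29 (0.959 to 1.73). Against pair 1+2 the median of the cholesterol list in 1+5 was 0.557, and against pairs 5+8 and 6+8 it was 1.02 and 1.03 in 2+5. Hypoxia and glycolysis genes had medians of 1.10 and 1.13 over 12 members, and 10 were above 1 in both (38.6% of all genes). PGK1, a glycolytic kinase, was at 321 CPM in pair 1+5, against 273 CPM in pair 5+7, a ratio of 1.18 (1.11 to 1.24), and at 467 CPM in pair 2+5, against 392 CPM in pair 7+8, a ratio of 1.19 (1.13 to 1.252). This list stayed above 1 with every matched pair, at 1.12, 1.08 and 1.03 for 1+5 and at 1.15 and 1.18 for 2+5, and 0 of its members were past the looser limit in both (2.08% of all genes).

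The amino acid response list had medians of 1.09 and 1.13 over 15 members. Its members past the looser limit in both were SLC7A11, given above, and PPP1R15A, a phosphatase subunit that restores translation after stress, with ratios of 1.34 (1.11 to 1.61) and 1.41 (1.16 to 1.70). ATF4, the transcription factor that drives this response, was lower, with ratios of 0.882 (0.775 to 1.00) and 0.767 (0.662 to 0.886). The list did not move as a unit, with 7 members above 1 in both (38.6% of all genes) and 2 below 1 in both (25.4%).

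Stress genes gave no uniform shift. Of 16 heat shock chaperones 7 were below 1 in both (25.4% of all genes) and 8 above 1 in both (38.6%), with medians of 1.01 and 0.999. HSPA1A, the inducible HSP70, was lower, at 51.3 CPM in pair 1+5, against 71.3 CPM in pair 5+7, a ratio of 0.720 (0.635 to 0.814), and at 35.1 CPM in pair 2+5, against 50.2 CPM in pair 7+8, a ratio of 0.699 (0.589 to 0.826). HSPA1A and HSPA1B have nearly the same sequence, so reads could be split between them, and HSPA1B had ratios of 0.79 and 0.94. HSPD1, a mitochondrial chaperonin, was higher, with ratios of 1.15 (1.12 to 1.18) and 1.21 (1.17 to 1.24). Of 10 immediate early genes and 8 growth arrest genes, 0 were past the looser limit in either comparison (7.41 and 10.3% of all genes). Of 16 oxidative stress and metal response genes 5 were below 1 in both (25.4% of all genes) and 5 above 1 in both (38.6%). NQO1, a quinone reductase, was the one of them lower past the looser limit in both, at 0.788 (0.758 to 0.819) and 0.786 (0.745 to 0.829).

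The 13 mitochondrially encoded genes were close to 1 in the kept cells, with median ratios of 0.937 and 0.951 and 0 past the looser limit (7.41 and 10.3% of all genes). MT-CO1, a subunit of cytochrome oxidase, had ratios of 0.914 (0.907 to 0.921) and 0.934 (0.927 to 0.942), while MT-ND1 had 1.08 (1.07 to 1.10) and 1.04 (1.03 to 1.06). Cytosolic ribosomal protein genes had medians of 0.996 and 1.02 over 35 members. S phase genes had medians of 1.04 and 1.03, and G2/M genes 0.999 and 1.02.

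**Figure D4:**
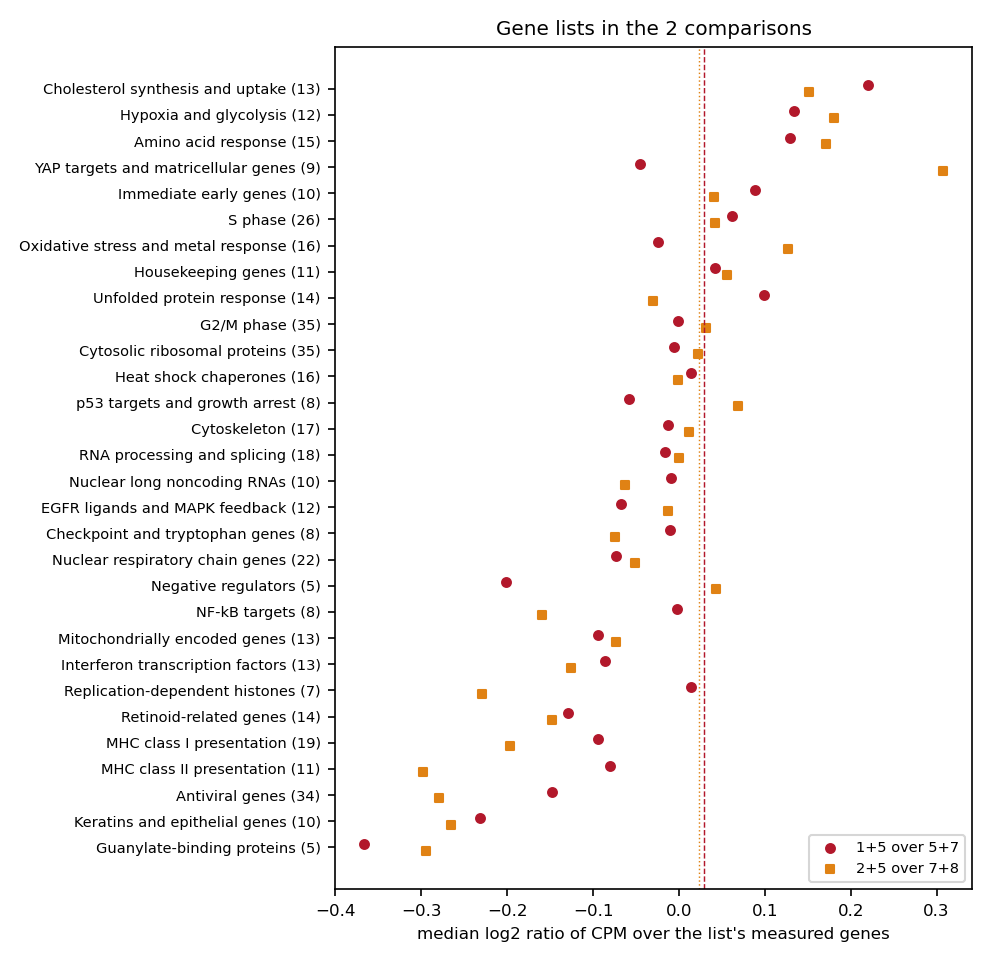
Median log2 ratio of CPM over the measured members of each gene list (number in parentheses), pair 1+5 over pair 5+7 (circles) and pair 2+5 over pair 7+8 (squares); the dashed and dotted lines are the medians of all 7325 genes. Antiviral, MHC class I, guanylate-binding, epithelial and retinoid lists lie left of the lines in both comparisons, and cholesterol, hypoxia and amino acid lists lie right of them in both. CD74 and IRF1, which chose the pairs, are kept in their lists here. Guanylate-binding genes had few UMIs in pairs 1+5 and 5+7. The MHC class II list lies left in both only with CD74: without it the median ratio in 1+5 was 1.03, beside 1.02 for all genes.

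The genes with ratios past 1.5-fold in opposite ways were CXCL10 and S100A2. CXCL10, another CXCR3 ligand, was at 126 CPM in pair 2+5, against 315 CPM in pair 7+8, a ratio of 0.402 (0.369 to 0.436). It had 32 UMIs in pair 1+5 and 26 in pair 5+7, a ratio of 1.60 with an interval from 0.925 to 2.80, so no difference was shown there. CXCL10 entered the measured set through the CD74-high pairs. S100A2, a calcium-binding protein of squamous epithelia, was at 43.6 CPM in pair 1+5, against 27.0 CPM in pair 5+7, a ratio of 1.61 (1.37 to 1.90), and at 26.7 CPM in pair 2+5, against 52.6 CPM in pair 7+8, a ratio of 0.508 (0.420 to 0.611). The top 10% of cells held 74.5% of S100A2 UMIs in pair 1+5 and 82.2% in pair 7+8, with up to 88 and 96 UMIs in a cell.

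Some genes moved past 2-fold in 1 comparison and stayed short of the looser limit in the other. PDGFA, a platelet-derived growth factor chain, was at 10.1 CPM in pair 1+5, against 20.7 CPM in pair 5+7, a ratio of 0.489 (0.373 to 0.637), and had a ratio of 0.813 (0.627 to 1.05) in 2+5. PDE1C, a phosphodiesterase, was at 19.3 CPM in pair 2+5, against 8.79 CPM in pair 7+8, a ratio of 2.19 (1.64 to 2.93), beside 1.20 in 1+5. BIRC3, an inhibitor of apoptosis, was at 41.5 CPM in pair 2+5, against 89.2 CPM in pair 7+8, a ratio of 0.466 (0.401 to 0.539), beside 0.828 in 1+5. The acute phase gene SAA2 had a ratio of 0.482 (0.422 to 0.550) in 2+5 and 1.09 in 1+5. KRT81, a hair keratin, was at 67.7 CPM in pair 2+5, against 215 CPM in pair 7+8, a ratio of 0.314 (0.281 to 0.351), and at 173 CPM in pair 1+5, against 178 CPM in pair 5+7. Its UMIs sat in few cells, with up to 282 in a cell of pair 2+5 and 571 in a cell of pair 7+8. Without the cells of the small populations described next, its ratio was 0.700 (0.619 to 0.790) in 2+5 and 0.0978 (0.0579 to 0.156) in 1+5, there on 19 UMIs in pair 1+5, against 260 in pair 5+7. HLA-DQB1 also met this rule in 1+5, on 4 and 2 UMIs.

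The number of cells of small populations was counted in each pair. Cells with at least 10 UMIs of 5 squamous markers numbered 5 of 243 in pair 1+5, 6 of 334 in pair 5+7, 0 of 166 in pair 2+5 and 4 of 356 in pair 7+8. Cells with at least 10 UMIs of 4 antiviral genes made up 5.35% of pair 1+5 (2.88 to 8.97%), against 3.89% (2.09 to 6.56%) of pair 5+7, and 4.82% (2.1 to 9.27%) of pair 2+5, against 7.58% (5.06 to 10.8%) of pair 7+8. All these intervals overlap. The antiviral genes are CCL5, HERC5, OASL and RSAD2 itself. Without the cells of both populations 7 genes were past 1.5-fold the same way in both comparisons, and CXCL9, GBP7 and RSAD2 were not among them. In 2+5 against 7+8, CXCL9 still had a ratio of 0.394 (0.322 to 0.478) and GBP7 of 0.607 (0.489 to 0.750), and in 1+5 against 5+7 they had 4 and 7, and 2 and 2, UMIs. RSAD2 had ratios of 0.892 (0.185 to 3.76) and 0.786 (0.515 to 1.18). The log2 ratio of S100A2 in 1+5 was then -0.13, while LCN2 had log2 ratios of 1.16 and 1.01. The share of cells in the lowest tertile by cell cycle genes was 20.6% in pair 1+5, against 27.8% in pair 5+7, and 22.3% in pair 2+5, against 25.8% in pair 7+8.

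Over all 2546 genes with at least 2000 UMIs, the pair closest to 1+5 was 5+7, and the closest to 2+5 was 6+8. The root mean square log2 difference, with counting noise removed, was 0.127 from 1+5 to 5+7 and 0.170 to 3+5, and 0.284 and 0.301 to 2+4 and 1+2. From 2+5 it was 0.125 to 6+8, 0.128 to 5+8 and 0.147 to 7+8, whereas 7+8 differed from 6+8 by 0.047 and from 5+8 by 0.084. By this measure pair 2+5 was about equally far from each CD74-high pair and farther from them than 7+8 was. Only the counting noise of UMIs was removed, and variation from which cells were sampled remains. Pair 2+5 held 166 cells, against 356 in 7+8, 463 in 6+8 and 325 in 5+8. How far its smaller cell number adds to its distances was not tested.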

How the data were processed

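Gene and hashtag UMIs were measured in 2 libraries of 1 pool. The deposited matrix holds raw counts of UMIs per feature and barcode, not normalised, for 7804 barcodes and 36601 genes, and 0 barcodes were listed more than once. Per the file headers, Cell Ranger 5.0.1 made it. The submitters' processing notes instead give version 2.1.1, with GRCh38 as the build, and which of them holds is not known.

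CPM of a pair is the sum of a gene's UMIs over its kept cells, scaled by all gene UMIs of those cells. Levels have exact Poisson intervals, ratios exact conditional intervals and shares exact Clopper-Pearson intervals, at 95%. UMIs made from PCR-amplified RNA of cells in 1 sample are not replicates, so no test was made. The cell filter removed 603 barcodes, and 1087 kept cells had no readable pair. Cells of several pairs fail the pair rule, and doublets within a pair cannot be seen. No doublet caller was run, and free RNA was not subtracted. Shares were taken after thinning to 10000 UMIs, leaving out 158 shallower cells of the 18 pairs. Genes needed 400 UMIs over the 4 pairs compared.

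The genes named were those past 1.5-fold the same way in both comparisons (up to 15 each way), those past it in opposite ways, those past 2-fold in 1 comparison and less than 25% higher or 20% lower in the other (up to 4 each way), members of gene lists, and IRF1 and CD74. This gave few shared genes, so genes at least 25% higher or 20% lower in both were named in addition after their values were seen, as was the retinoid list. Some genes that the rules name are not reported here, and 1 of them was left out of the retinoid list. The pairs, members and gene lists were chosen with earlier results of these data known.

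Gene positions are from GENCODE 29, where 722 of 723 genes looked up were found, and promoters from RefSeq. Alternatives covered the fold, the filter on low counts, scaling (TMM in edgeR 4.0.16, R 4.3.3, median of ratios, totals without mitochondrial genes), cell weights, cell and hashtag filters (no cell filter at all was added after seeing the data), and other matched pairs. The calculations were tested on simulated data. Python 3.11.15, numpy 2.4.6, scipy 1.17.1, pandas 2.3.3 and matplotlib 3.10.9 were used.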

Additional observations from a re-analysis of the deposited data

Results flagged for a closer look

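CXCL10 went in opposite ways in the 2 comparisons, with a ratio of 1.60 in pair 1+5 against 5+7 and of 0.402 in pair 2+5 against 7+8. The log2 difference of these ratios was 2.00 with a counting interval of 1.24 to 2.75, and the difference was not tested. The first ratio rests on 32 and 26 UMIs, too few to show a difference in pair 1+5 against 5+7. S100A2 also went in opposite ways, with ratios of 1.61 and 0.508 and a log2 difference of 1.67 (1.32 to 2.02), and this difference was not tested either. Without the cells of the small populations, S100A2 had a ratio of 0.913 (0.726 to 1.15) in pair 1+5 against 5+7. It then had 0.670 (0.549 to 0.814) in pair 2+5 against 7+8, so the opposite directions were no longer seen.

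Barcodes outside the kept cells carried a signal that the comparisons of genes do not use. The share of barcodes removed by the cell filter was 22.1% in pair 1+5 and 29.7% in pair 2+5, above the 2.94 to 8.90% in the 16 other pairs.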

How the results depend on the processing

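Counts of genes past the fold are given as 1+5 against 5+7, then 2+5 against 7+8, then the same way in both, where the values as reported were 64, 95 and 6. They were 543, 753 and 152 at the looser limit of 25% higher or 20% lower, and 8, 11 and 1 at 2-fold, and 377, 551 and 56 with at least 100 UMIs, 7, 15 and 2 with at least 2000 UMIs, and 3585, 3634 and 661 with no filter on low counts. Fewer UMIs went with more genes past the fold: the counts were 261, 406 and 30 with cells thinned to 10000 UMIs, and 649, 947 and 80 with the cells of the lowest tertile by cell cycle genes. With median-of-ratios scaling 10 genes were shared, and with every cell weighted equally the count in 2+5 was 153. Other matched pairs, in part chosen after seeing the data, gave 625 genes against pair 1+2 with 25 shared, 680 against 2+4 with 15 shared, 144 against 3+5, and 55 for 2+5 against 6+8. Under the other alternatives run, among them TMM, totals without mitochondrial genes, both stricter filters, no mitochondrial limit, no cell filter, and the pool without small populations, all 3 counts stayed within 1.5 times. No scaling moved the median of all genes by 0.1 on the log2 scale. LCN2 kept its direction in every alternative, at log2 ratios of 0.54 to 1.16 and 0.83 to 1.40 over 11 settings with the same pairs.

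Log2 ratios past 1.5-fold that changed sign, for causes that were not tested, were DHRS3 in 1+5 against 2+4 (1.03) and 3+5 (0.62), CXCL9 against 2+4 (0.32), 3+5 (1.47) and, in 2+5, against 5+8 (0.29), and RSAD2 in 2+5 against 5+8 (0.32). CXCL10 changed sign against 1+2 (-0.10) and 5+8 (0.13), and HLA-DQB1 against 1+2 (-0.026) and 2+4 (-0.0063). Without small populations GBP7 (0.42) and S100A2 (-0.13) did so in 1+5. Ratios short of 1.5-fold also changed sign in some settings for IRF1, CD74, SAA2 (-1.04 in 1+5 against 1+2 and -1.32 against 2+4), HLA-DQB1, BIRC3, PDE1C, PDGFA and KRT81. No paired analysis was possible because the pool is 1 sample with no replicate numbers.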

Other observations

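The genes with the largest ratio in each direction in 2+5 against 7+8 lay outside the rule for named genes and were picked after their values were seen. FABP4, a fatty acid-binding protein known from adipocytes, was at 48.1 CPM in pair 1+5, against 65.9 CPM in pair 5+7, a ratio of 0.730 (0.642 to 0.830). It was at 22.6 CPM in pair 2+5, against 8.05 CPM in pair 7+8, a ratio of 2.81 (2.12 to 3.74). S100A9, a calcium-binding protein of myeloid cells and squamous epithelia, had 167 UMIs in pair 1+5, against 169 in pair 5+7, a ratio of 1.29 (1.03 to 1.60). It had 26 UMIs in pair 2+5, against 216 in pair 7+8, a ratio of 0.241 (0.154 to 0.363), and pair 2+5 is the one with 0 cells past 10 UMIs of the squamous markers. Without the cells of the small populations S100A9 was lower in both, with 0 UMIs in pair 1+5, against 8 in pair 5+7, and a ratio of 0.407 (0.256 to 0.625) in 2+5 against 7+8.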
